A study of Mus musculus with 21 samples.

Results

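Bone marrow-derived macrophages of the genotype Cx3cr1CRExGata3fl/fl were compared with wild-type macrophages after both had been held with IL-33. The comparison rested on 6 RNA sequencing libraries of the 21 in the study, 3 of each genotype, and on the 13908 autosomal genes that passed an expression filter, of 14473 genes tested and 47069 in the table. Macrophages were grown from marrow over 5 days in medium with M-CSF, the growth factor that drives macrophage differentiation, and then kept for 36 h with IL-33. The study's title places the experiment in work on how IL-33 changes metabolism and alternative activation in macrophages.

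The floxed group, as these libraries are called here, carried Gata3 alleles that Cre recombinase can cut out and a Cre driven by Cx3cr1, a chemokine receptor gene of the monocyte and macrophage lineage. Both groups were on C57BL/6, and the labels give the wild-type group no Cre and no floxed allele, so the effects of the Cre, of the floxed allele and of the loss of Gata3 cannot be told apart. A further 3 libraries of each genotype were held without cytokine, and these allowed the genotypes to be compared in libraries that the main comparison did not use. Xist, the RNA that coats the inactive X, was present at 277 to 376 CPM (counts scaled to library size) in the 6 floxed libraries and at 0.0462 CPM or less in the other 15, whereas the Y-linked Ddx3y stood at 0.0286 CPM or less in the floxed libraries and at 61.0 to 86.3 CPM in the others. Genotype, sex and colony of origin therefore cannot be told apart in any value below, and genes of the sex chromosomes were left out. The labels do not say whether libraries of a group came from separate animals or from 1 culture, so the p-values cover only library-to-library spread, which may be technical.

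IL-33 is a cytokine of the IL-1 family that cells release on damage. It binds ST2, the product of Il1rl1, together with the shared chain encoded by Il1rap, and signals through MyD88 to NF-kB and MAP kinases. In macrophages IL-33 is known to add to alternative activation, the state marked by arginase 1 and by lectins such as those encoded by Clec10a and Mrc1. GATA3 is a zinc-finger transcription factor that binds DNA around the letters GATA and is best known for the type 2 programme of T helper cells and innate lymphoid cells, in which it acts on the genes of the ST2 receptor and of type 2 cytokines.

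The stretches just before the start sites of 4 genes are shown as a description, and no result rests on them. The genes were chosen for their values. Il1rl1 and Ccr3 differed under IL-33 and not detectably without it, and Isg15 and Rsad2 were among the interferon-stimulated genes, all of which had log2 differences below 0. Each run is the 250 bases before a RefSeq start site on the gene's own strand in the build GRCm38.p6. Capitals mark AGATAA or AGATAG or TGATAA or TGATAG on either strand in Il1rl1 and Ccr3 and GAAANNGAA on either strand in Isg15 and Rsad2, where matches may overlap. The first 2 are alternative start sites of Il1rl1 (chr1:40429320-40429569 and chr1:40439379-40439628, plus strand), the third belongs to Ccr3 (chr9:124021721-124021970, plus strand), and the last 2 to Isg15 (chr4:156200819-156201068, minus strand) and Rsad2 (chr12:26456453-26456702, minus strand).
Il1rl1, upstream start: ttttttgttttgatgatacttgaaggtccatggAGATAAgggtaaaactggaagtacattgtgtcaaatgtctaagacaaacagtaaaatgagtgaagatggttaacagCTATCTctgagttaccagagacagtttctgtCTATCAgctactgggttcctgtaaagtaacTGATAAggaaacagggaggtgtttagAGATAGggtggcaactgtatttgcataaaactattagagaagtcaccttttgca
Il1rl1, downstream start: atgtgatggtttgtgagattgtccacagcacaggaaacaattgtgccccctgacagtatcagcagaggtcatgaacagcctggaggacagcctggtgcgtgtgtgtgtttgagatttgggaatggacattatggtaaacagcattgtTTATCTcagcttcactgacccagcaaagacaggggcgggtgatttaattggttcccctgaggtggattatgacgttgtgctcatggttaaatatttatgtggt
Ccr3: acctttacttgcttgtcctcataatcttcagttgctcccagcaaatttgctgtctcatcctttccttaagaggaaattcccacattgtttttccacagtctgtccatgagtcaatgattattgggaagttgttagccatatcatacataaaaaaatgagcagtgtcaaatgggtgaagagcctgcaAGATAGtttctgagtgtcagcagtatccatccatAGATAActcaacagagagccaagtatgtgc
Isg15: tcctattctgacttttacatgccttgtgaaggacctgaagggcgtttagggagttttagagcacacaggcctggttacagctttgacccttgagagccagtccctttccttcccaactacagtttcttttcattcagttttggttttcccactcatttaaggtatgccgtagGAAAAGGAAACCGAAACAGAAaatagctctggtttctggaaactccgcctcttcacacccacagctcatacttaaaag
Rsad2: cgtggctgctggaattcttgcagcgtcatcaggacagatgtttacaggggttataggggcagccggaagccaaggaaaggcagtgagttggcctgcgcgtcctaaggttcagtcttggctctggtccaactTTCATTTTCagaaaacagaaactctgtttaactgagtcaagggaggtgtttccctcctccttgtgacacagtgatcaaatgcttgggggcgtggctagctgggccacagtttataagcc

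The upstream Il1rl1 window held 5 GATA matches, at 217, 141, 110, 80 and 54 bases before the start, and the downstream window held 1. Ccr3 held 2, at 64 and 30 bases. The windows of Dkk2, Flt1, St8sia1 and Slc22a4, whose values are given below, held none of these letters. For Gdf15, which was higher in floxed cells, 1 of 2 windows held a match, at 228 bases before the start. Arg1 and Gdf3 had no entry in the RefSeq table. Among the 9565 tested autosomal genes with an entry, 2082 of 12207 windows (17.1%) held a GATA match. The share was 15.8% in windows of genes higher in floxed libraries, 16.3% in windows of genes lower in them and 17.2% in windows of the other genes. GAAANNGAA, part of the interferon-stimulated response element, was chosen after the values of the interferon-stimulated genes were seen. It stood in 6.48% of all windows, in 9.75% of those of lower genes, in 6.15% of those of higher genes and in 13 of the 29 windows (44.8%) of the interferon-stimulated list. Isg15 held 3 overlapping matches, at 78, 72 and 66 bases before the start, Rsad2 held 1, and both Ifit2 windows held none. A match is a description of these letters and not a binding site.

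Read totals of the 6 libraries ranged from 33.8 to 41.7 M (mega) counts, and the tested genes held at least 99.97% of the counts in every library. The spread between libraries of a group, over all 21 libraries, left a coefficient of variation of 0.0860 after counting error was taken off. Summed levels of 12 macrophage markers, Adgre1 and Csf1r among them, lay at 37544 to 38380 CPM in the floxed libraries and at 39440 to 43882 CPM in the wild-type libraries, so the labelled cell type was borne out in both groups. Of the 12, 3 were lower and 1 higher under IL-33, and 0 were higher without floxed replicate 2 or 3 or wild-type replicate 1 or 2. Gata3 itself was close to the detection limit, with 14, 9 and 14 counts in floxed replicates 1 to 3 and 7, 10 and 5 counts in wild-type replicates 1 to 3. Those counts cover the whole gene and do not check the deletion. Cx3cr1, the gene that drives the Cre, lay at 29.2, 22.1 and 20.4 CPM in the floxed and 27.3, 26.7 and 32.5 CPM in the wild-type libraries (log2 difference −0.27, adjusted p = 0.150 by edgeR's quasi-likelihood test, and 0.0145 without floxed replicate 1).

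Under IL-33, 1566 of the 13908 autosomal genes (11.3%) differed between floxed and wild-type macrophages at an adjusted p under 0.05. Of these, 745 (5.36% of genes tested) were higher and 821 (5.90%) were lower in the floxed libraries. These shares are the background for every count of called list members below. Most differences were small, with a median absolute log2 difference of 0.37 among called genes. At least a 2-fold difference was reached by 78 higher and 111 lower genes, and at least a 4-fold difference by 28 and 23. The 3 floxed and 3 wild-type libraries did not overlap for 3897 genes (28.0%), among them 1521 of the 1566 called. All tests are edgeR's quasi-likelihood test with Benjamini-Hochberg adjustment over all 14473 genes, differences are floxed minus wild type, and values are listed in the order of replicates 1, 2 and 3. The total fell to 960 without wild-type replicate 2 and to 1033 without floxed replicate 3.

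**Figure D1:**
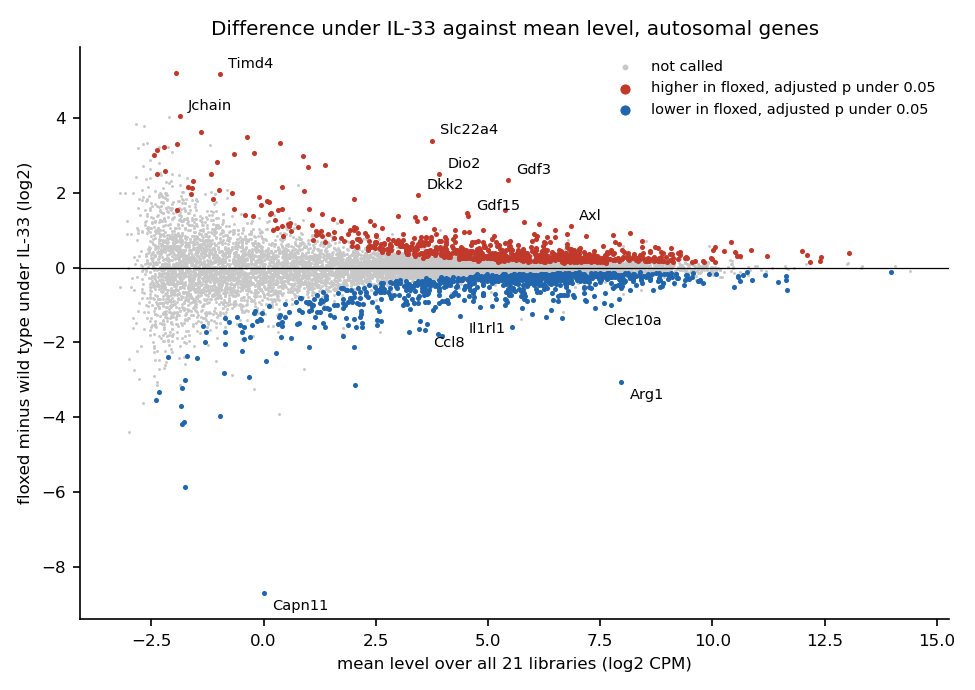
Each point is an autosomal gene, with its mean level over all 21 libraries (log2 CPM) on the x axis and the floxed minus wild-type difference under IL-33 (log2) on the y axis. Red points are the 745 genes called higher and blue points the 821 called lower, and most lie within 1 log2 unit of 0, while Arg1 combines a high level with a difference of −3.07.

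Several markers of alternative activation were lower in floxed cells under IL-33. Of 22 measured, 8 were lower and 2 higher in floxed libraries, with a median log2 difference of −0.37 against −0.00 over all autosomal genes. Without floxed replicate 1 the number lower was 5. Without cytokine the same list had 1 lower and 3 higher members.

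Arg1 (chr10:24915221-24927484, minus strand), which encodes arginase 1 and splits arginine into urea and ornithine, stood at 47.2, 45.6 and 40.2 CPM in floxed libraries and at 320, 362 and 439 CPM in wild-type libraries. The means were 44.3 ± 3.69 and 373 ± 60.3 CPM (SD, n = 3 each), and no floxed library came near a wild-type library. The fitted difference was 8.43-fold (log2 −3.07 ± 0.17 SE, adjusted p = 3.8e-11). Without cytokine all 6 libraries of these genotypes lay at 0.519 CPM or less, so Arg1 was low in both genotypes there. The log2 change from no cytokine to IL-33 was 9.92 in the wild type and 7.58 in the floxed cells, and the difference between these responses (−2.34 ± 0.79) did not pass the threshold (adjusted p = 0.171).

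Clec10a and Mgl2, neighbouring genes for galactose-binding lectins of alternatively activated macrophages, moved in the same direction. Clec10a measured 186, 157 and 181 CPM in floxed and 423, 365 and 320 CPM in wild-type libraries. Mgl2 measured 152, 119 and 146 CPM against 320, 271 and 247 CPM. For both, every floxed library lay below every wild-type library, by log2 differences of −1.08 ± 0.12 (adjusted p = 1.3e-06) and −1.01 ± 0.11 (adjusted p = 2.0e-06). Clec10a was also lower without cytokine (−0.60, adjusted p = 0.00202), whereas Mgl2 was at 6.82 to 8.55 CPM in floxed and 8.52 to 10.6 CPM in wild-type libraries there, which overlap.

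Flt1, a receptor for vascular endothelial growth factor, was at 5.47, 3.51 and 3.89 CPM in floxed and 15, 12.7 and 11.3 CPM in wild-type libraries (log2 −1.59 ± 0.19, adjusted p = 6.6e-06). Igf1, the insulin-like growth factor that macrophages secrete in repair, measured 814, 799 and 765 CPM against 1058, 1086 and 1136 CPM (−0.46 ± 0.04, adjusted p = 8.2e-08). Cd163, the receptor for haemoglobin bound to haptoglobin, was lower too (−0.42, adjusted p = 0.00188). The lower calls of Cd209a, Ccl24 and Mrc1 were less firm. Cd209a lost its call without floxed replicate 1 or wild-type replicate 2 (adjusted p up to 0.0900). Ccl24 kept it only without wild-type replicate 2 (up to 0.132), and Mrc1, whose libraries overlapped, kept it only without floxed replicate 2 or wild-type replicate 1 (up to 0.220).

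Members of the same list went the other way. Chil3, which encodes the chitinase-like protein Ym1, measured 22.6, 27.5 and 26.6 CPM in floxed and 14.7, 13.4 and 14.8 CPM in wild-type libraries (0.84 ± 0.11, adjusted p = 1.7e-05), and it was also higher without cytokine (0.90, adjusted p = 3.7e-05). Chil3 shared 26.9% of its 50-base exon words with other genes, so reads may be split between copies. Clec7a, the receptor dectin-1 for fungal glucans, was higher by 0.52 under IL-33 (adjusted p = 2.8e-04) and by 0.54 without it. Retnla, another classical marker, did not pass the test (−1.18, adjusted p = 0.263).

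**Figure D2:**
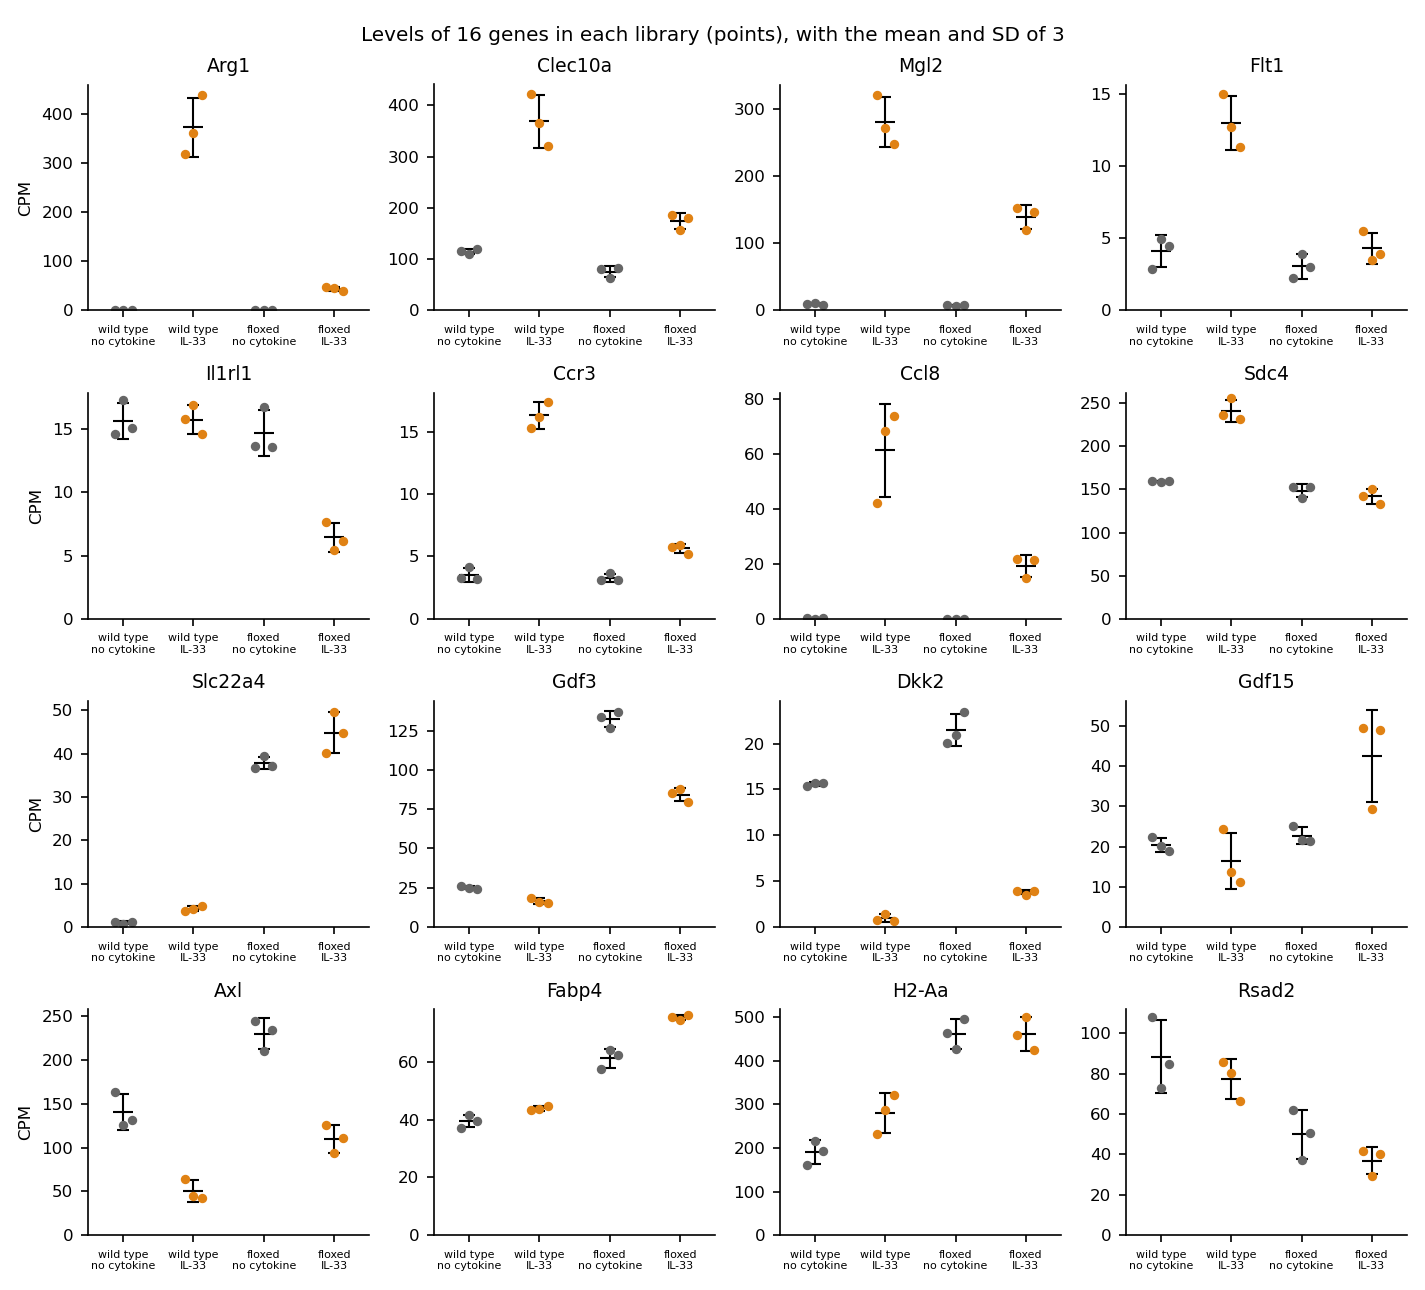
Level in CPM (y axis, 1 panel per gene) of 16 genes in the 12 libraries of the floxed and wild-type genotypes, with and without IL-33; points are libraries and bars are the mean and SD of 3. Arg1, Clec10a, Mgl2, Flt1, Il1rl1, Ccr3, Ccl8, Sdc4 and Rsad2 lie lower in the floxed IL-33 libraries than in the wild-type ones, and Slc22a4, Gdf3, Dkk2, Gdf15, Axl, Fabp4 and H2-Aa lie higher.

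The receptor for IL-33 itself differed. Il1rl1 (chr1:40429570-40465415, plus strand), the gene of ST2, measured 7.67, 5.48 and 6.18 CPM in floxed and 15.8, 16.9 and 14.6 CPM in wild-type libraries under IL-33. These rested on 285, 181 and 216 counts and on 598, 686 and 518 counts. The floxed level was 2.44-fold lower (log2 −1.29 ± 0.15, adjusted p = 4.5e-06), with no overlap. Without cytokine, Il1rl1 stood at 13.7, 16.8 and 13.6 CPM in floxed and 14.6, 17.3 and 15.1 CPM in wild-type libraries, which overlap (−0.09, adjusted p = 0.747). The genotype difference under IL-33 differed from that without cytokine by −1.19 ± 0.21 (adjusted p = 0.00405), and this held in 12 of 12 fits that left out 1 library (adjusted p up to 0.0218).

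Of 19 measured receptors of type 2 and IL-1 family cytokines and GATA factors, 2 were lower and 2 higher. Besides Il1rl1, Zfpm1, which encodes the GATA cofactor FOG-1, was lower (−0.40, adjusted p = 0.0396), a call that stood in 1 of 6 fits without 1 library, the one without floxed replicate 1 (adjusted p up to 0.172 in the other 5). Il7r, the IL-7 receptor chain that also serves the TSLP receptor, was higher with 240, 265 and 231 CPM against 126, 136 and 140 CPM (0.88 ± 0.06, adjusted p = 4.1e-09), and without cytokine it was higher by 0.78. Crlf2, the second chain of the TSLP receptor, was higher by 0.32 (adjusted p = 0.00538). The signalling partners of ST2 and of the IL-4 receptor gave no call: Il1rap differed by 0.02 (adjusted p = 0.919), Il4ra by −0.29 (0.0863) and Stat6 by 0.05 (0.600).

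Ccr3, the receptor for eotaxins, was like Il1rl1 lower in floxed cells under IL-33 and not detectably so without it, but the responses differed. The log2 change of Il1rl1 on IL-33 was 0.01 in the wild type and −1.18 in floxed cells, whereas Ccr3 rose in both. Ccr3 measured 5.79, 5.90 and 5.23 CPM in floxed and 15.3, 16.2 and 17.4 CPM in wild-type libraries (2.89-fold, log2 −1.53 ± 0.15, adjusted p = 3.0e-07). Without cytokine the libraries lay at 3.08 to 3.67 CPM in floxed and 3.18 to 4.15 CPM in wild-type cells, and they overlapped. The log2 change on IL-33 was 2.21 in the wild type and 0.78 in the floxed cells, a difference of −1.43 ± 0.22 (adjusted p = 0.00123). Ccr3 lies on chromosome 9 less than 5 Mb from Cx3cr1. Cxcr4, the receptor of the bone marrow chemokine CXCL12, was the other called chemokine receptor of 11 measured and was higher (0.39, adjusted p = 9.8e-04).

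Without cytokine, 1357 autosomal genes (9.76%) differed between the genotypes, 760 higher (5.46%) and 597 lower (4.29%) in floxed libraries. Of these, 514 were also called under IL-33, which is 32.8% of the genes called there and 37.9% of those called without cytokine. The sign was the same for 501 of them and opposite for 13. Over all autosomal genes, the log2 differences with and without IL-33 had a Pearson correlation of 0.32. A further 1052 genes were called under IL-33 and not without it, but for most of them the difference of the differences did not pass the test. That difference, tested directly, was called for 172 genes (1.24%), 76 above 0 and 96 below 0, and 100 of these were called under IL-33 and not without cytokine. The count without cytokine fell to 622 without floxed replicate 2 of that condition, and to 741 and 772 without wild-type replicates 1 and 3. The count for the difference of differences ranged from 52 to 266 over 12 fits without 1 library. It was 52 without floxed replicate 3 and 75 without floxed replicate 1 under IL-33, 54 and 111 without wild-type replicates 2 and 3 under IL-33, and 266 without wild-type replicate 1 under IL-33. It was 92, 85 and 108 without floxed replicates 1, 2 and 3 held without cytokine, and 62 and 65 without wild-type replicates 1 and 3 held without cytokine.

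**Figure D3:**
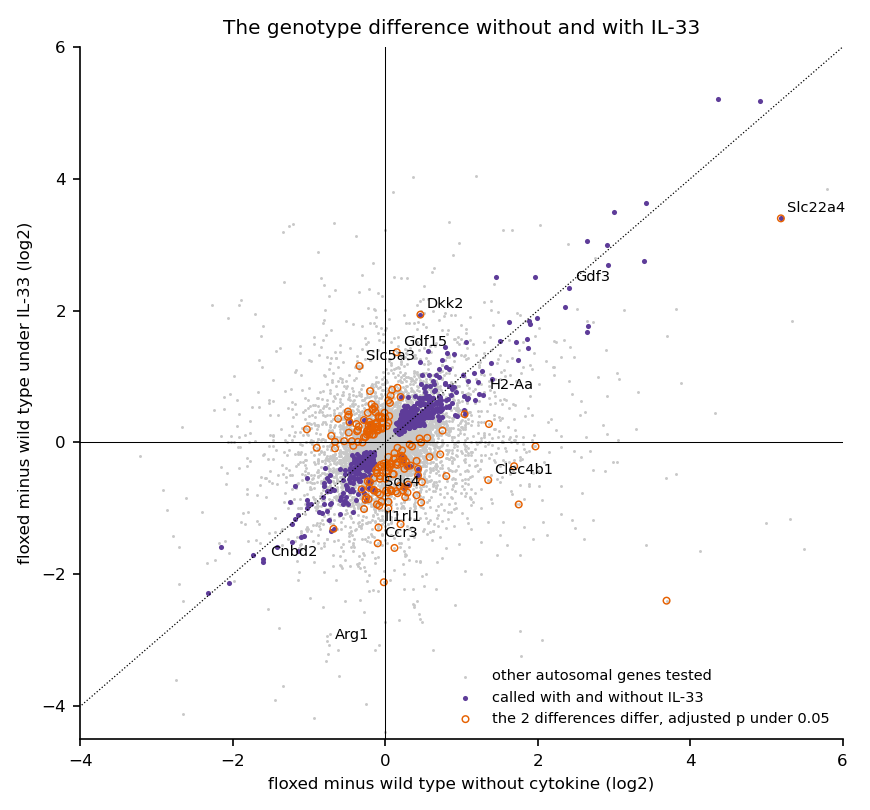
Each point is an autosomal gene, with the floxed minus wild-type difference without cytokine (log2) on the x axis and under IL-33 (log2) on the y axis; the dotted line marks equal differences. Purple points are the 514 genes called in both conditions, and open orange circles are the 172 genes whose differences differ; Il1rl1, Ccr3 and Sdc4 lie near 0 on the x axis and below 0 on the y axis, and 9 genes lie outside the axes.

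Further genes with a difference of differences below 0 were Sdc4, St8sia1, Itga9 and Adgre1. Sdc4, which encodes the heparan sulfate proteoglycan syndecan-4, measured 142, 151 and 133 CPM in floxed and 236, 256 and 232 CPM in wild-type libraries (log2 −0.76 ± 0.05, adjusted p = 1.9e-09). Without cytokine it lay at 140 to 153 CPM in floxed and 159 to 160 CPM in wild-type cells (−0.10, adjusted p = 0.260), so IL-33 raised Sdc4 in wild-type cells by 0.60 and floxed cells stayed near the unstimulated level (−0.07). The difference of differences, −0.66 ± 0.07, had an adjusted p of 5.9e-05 and was called in 12 of 12 fits without 1 library.

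St8sia1, the sialyltransferase that makes the ganglioside GD3, measured 0.215, 0.605 and 0.458 CPM in floxed and 1.43, 1.82 and 2.28 CPM in wild-type libraries (−2.12 ± 0.29, adjusted p = 2.7e-05). Itga9, an integrin alpha chain that also lies within 5 Mb of Cx3cr1, measured 2.18, 3.45 and 1.63 CPM against 4.28, 8.03 and 9.60 CPM (−1.60 ± 0.29, adjusted p = 7.2e-04), and its wild-type replicate 1 was the wild-type library nearest the floxed ones. Neither St8sia1 nor Itga9 was called without cytokine (adjusted p = 0.986 and 0.849). Their differences of differences were −2.10 (adjusted p = 0.0236) and −1.71 (0.0366), called in 5 and in 3 of 12 fits without 1 library. Adgre1, the gene of the macrophage marker F4/80, was at 1629, 1876 and 1578 CPM against 2040, 2246 and 2262 CPM (−0.37, adjusted p = 7.4e-05). Without cytokine Adgre1 differed by −0.05 (adjusted p = 0.631), and the difference of differences (−0.32, adjusted p = 0.0441) was called in 2 of 12 fits without 1 library.

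Other genes were higher in floxed cells under IL-33, with a difference of differences above 0. Dkk2 (chr3:132085292-132180304, plus strand), a secreted regulator of Wnt signalling, measured 3.93, 3.51 and 3.92 CPM in floxed and 0.793, 1.45 and 0.676 CPM in wild-type libraries (log2 1.94 ± 0.20, adjusted p = 8.6e-07). IL-33 lowered Dkk2 in both genotypes, from 15.4, 15.7 and 15.7 CPM in the wild type and from 20.1, 20.9 and 23.5 CPM in floxed cells. Dkk2 was thus also higher in floxed cells without cytokine (0.46, adjusted p = 0.0368), and the lowering was smaller in floxed cells by 1.48 ± 0.25 (adjusted p = 0.00284). Gdf15, a stress-induced member of the TGF-beta family, measured 49.4, 29.3 and 48.9 CPM against 24.3, 13.8 and 11.2 CPM (1.37 ± 0.20, adjusted p = 8.2e-05), with no overlap. Without cytokine Gdf15 lay at 18.9 to 25.2 CPM in all 6 libraries. Its difference of differences (1.22, adjusted p = 0.0376) was called in 3 of 12 fits without 1 library.

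Spp1, which encodes the matrix protein osteopontin, changed sides. It was higher in floxed cells under IL-33, with 3719, 3263 and 3739 CPM against 2882, 2727 and 3036 CPM (0.31, adjusted p = 0.0314), a call lost without floxed replicate 1 or 3 or wild-type replicate 1 or 2 (up to 0.123). Without cytokine it was lower, with 1822, 1745 and 1688 CPM against 2683, 2446 and 2151 CPM (−0.47, adjusted p = 0.00221). The difference of differences was 0.78 (adjusted p = 0.00284) and was called in 12 of 12 fits without 1 library. Slc5a3, the sodium and myo-inositol cotransporter, was higher under IL-33 with 89.4, 74.7 and 117 CPM against 52.4, 37.3 and 36.5 CPM (1.16 ± 0.23, adjusted p = 0.00209), and it shares exon sequence positions with Mrps6 on the same strand. Clec4n, the receptor dectin-2, measured 144, 126 and 150 CPM against 64.8, 78.9 and 102 CPM (0.78, adjusted p = 2.0e-04).

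A second set of genes differed between the genotypes whether or not IL-33 was present. Slc22a4 (chr11:53983123-54028090, minus strand), a transporter of organic cations and ergothioneine, measured 40.1, 49.7 and 44.8 CPM in floxed and 3.75, 4.25 and 4.79 CPM in wild-type libraries (10.5-fold, log2 3.40 ± 0.19, adjusted p = 2.5e-11). Without cytokine the values were 36.8, 39.5 and 37.2 CPM against 1.23, 0.700 and 1.18 CPM, a 36.5-fold difference (adjusted p = 1.7e-13). The difference was smaller under IL-33 by 1.79 on the log2 scale (difference of differences −1.79 ± 0.29, adjusted p = 0.00229), and the log2 change of Slc22a4 on IL-33 was 2.04 in the wild type and 0.25 in floxed cells. Pdlim4, a cytoskeletal adaptor gene close to it (chr11:54054928-54069014), went the other way with 6.30, 7.02 and 6.46 CPM against 19.0, 20.1 and 23.1 CPM (−1.65 ± 0.12, adjusted p = 2.7e-09). Within 5 Mb of Slc22a4, a window chosen after these values were seen, 20 of 110 tested genes (18.2%) were called under IL-33, beside 11.3% of all autosomal genes.

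Gdf3 (chr6:122605403-122610087, minus strand), a TGF-beta family ligand, measured 85.2, 88.2 and 79.6 CPM in floxed and 18.6, 16.0 and 15.1 CPM in wild-type libraries under IL-33 (5.08-fold, log2 2.35 ± 0.08, adjusted p = 7.0e-16). Without cytokine it measured 134, 127 and 137 CPM against 26.2, 24.9 and 24.0 CPM, nearly the same difference (2.41). The difference of the differences was −0.06 (adjusted p = 0.870). Dio2, the deiodinase that activates thyroid hormone, was higher by 2.51 ± 0.23 under IL-33, at 14.3, 11.0 and 17.0 CPM against 2.78, 2.26 and 2.42 CPM (adjusted p = 1.2e-07), and by 1.45 without it. Axl, a receptor tyrosine kinase for Gas6 on phagocytes, was higher by 1.12 ± 0.16 with 126, 93.8 and 111 CPM against 64.7, 44.8 and 42.5 CPM (adjusted p = 6.5e-05), and by 0.71 without cytokine (adjusted p = 0.00570).

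Further genes called in both conditions with the same sign included Cnbd2, Eps8l1, Sh2d1b1, Camk2b and Bnip3 among the lower and Mamdc2, Gprc5b, Pianp, Cdkn1c, Arhgef18 and Mcoln3 among the higher. Cnbd2 stood at 6.17, 8.51 and 6.72 CPM in floxed and 27.6, 23.9 and 24.0 CPM in wild-type libraries (−1.82 ± 0.12, adjusted p = 7.4e-10). ST2-deficient libraries lay near the floxed level of Cnbd2, so its low level was not particular to floxed cells. They measured 8.46, 9.59 and 8.51 CPM with IL-33 and 9.86, 9.43 and 9.18 CPM without cytokine. Eps8l1 measured 2.50, 2.82 and 2.63 CPM against 8.91, 8.25 and 8.87 CPM (−1.71, adjusted p = 2.7e-09). Bnip3, a receptor for the removal of mitochondria, measured 89.0, 87.9 and 75.0 CPM against 190, 218 and 230 CPM (−1.34 ± 0.16, adjusted p = 6.1e-06). The strand setting of the counting is not given in the sources used here, so counts are uncertain for genes whose exons overlap another gene on the opposite strand, 37 of the 194 checked. Besides Cnbd2, Eps8l1, Bnip3, Gprc5b and Cdkn1c, those named here are Bmpr1a, Ciita, Csf1r, Cx3cr1, Cxcl10, Dio2, Gas6, Gata3, Gbp2, Gpi1, Hk3, Hsp90b1, Irf1, Maf, Mcm7, Pdia3, Pdia6, Slc7a2, St8sia1 and Ucp2. Exons of Csf2rb2, Gata3, Hsp90b1, Mcm7, Mrps6, Nnt, Nr1h3, Oaz1, Pdia4, Slc5a3 and Spp1 overlap another annotated gene on the same strand, and their counts are uncertain too.

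Nnt, Capn11, Bmpr1a and Havcr1 were chosen after their values were seen. Nnt, a mitochondrial transhydrogenase gene in which C57BL/6 substrains are known to differ, measured 32.5, 35.5 and 35.4 CPM in floxed and 77.8, 84.7 and 80.9 CPM in wild-type libraries (−1.24 ± 0.06, adjusted p = 1.0e-11), and it was also lower without cytokine (−1.22). It shared 46.9% of its 50-base exon words with other annotated genes, so reads may be split between gene models. Capn11, a calpain protease, had 0 counts in the 3 floxed IL-33 libraries and 149 in the 3 wild-type ones, at least 15.2-fold lower against a floor of 3 counts per library, and 0 against 171 counts without cytokine. Bmpr1a, a receptor for bone morphogenetic proteins, measured 4.23, 5.63 and 4.78 CPM against 0.423, 0.811 and 0.591 CPM (2.99 ± 0.30, adjusted p = 5.5e-07). Timd4, the phosphatidylserine receptor of resident macrophages, totalled 243 counts in floxed and 7 in wild-type libraries, a ratio of 37.7 (95% interval 18.0 to 94.7, for counting error only). Havcr1, a gene of the same family near Timd4 on chromosome 11, totalled 97 counts against 14, a ratio of 7.52 (4.27 to 14.3), and it lost its call without floxed replicate 1 or 3 or wild-type replicate 2 (adjusted p up to 0.105).

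Several chemokine genes were lower. Of 21 measured, 6 were lower and 1 higher, beside 5.90% and 5.36% of all autosomal genes, with a median log2 difference of −0.38. Leaving out floxed replicate 1, floxed replicate 2 or wild-type replicate 1 left 3 lower. Ccl8, a ligand that draws monocytes and eosinophils, measured 21.6, 14.7 and 21.5 CPM in floxed and 42.0, 68.2 and 73.8 CPM in wild-type libraries (log2 −1.67 ± 0.20, adjusted p = 5.4e-06). Ccl12, a ligand of CCR2, measured 6.81, 4.90 and 8.04 CPM against 19.9, 20.0 and 20.2 CPM (−1.60 ± 0.28, adjusted p = 4.9e-04). Ccl4 measured 57.5, 44.5 and 52.0 CPM against 83.7, 72.7 and 67.3 CPM (−0.54, adjusted p = 0.00246). Cxcl10, an interferon-induced ligand of CXCR3, was called (−1.17, adjusted p = 0.0206) but lost the call without floxed replicate 1 or 2 or wild-type replicate 1 or 3 (adjusted p up to 0.102). Ccl6 was the single higher member, at 2604, 2818 and 3068 CPM against 1877, 1884 and 2006 CPM (0.56, adjusted p = 0.00117).

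Of 17 inflammatory cytokines and enzymes, 1 was lower and 1 higher, a share near the 11.3% called over all autosomal genes, with a median of −0.19. Other settings called up to 4 lower and 2 higher. Il10, the anti-inflammatory cytokine, was at 2.34, 2.36 and 1.83 CPM against 3.91, 4.15 and 3.83 CPM (−0.86, adjusted p = 0.0381), and this call was lost in each of the 6 fits without 1 library (adjusted p 0.0657 to 0.146). Csf1, the gene of M-CSF, was higher by 0.54 (adjusted p = 0.0288) and lost the call without floxed replicate 1 or 3 or wild-type replicate 2 or 3 (up to 0.154). Tnf differed by −0.46 (adjusted p = 0.111), Il6 by 0.12 (0.947) and Nos2 by −0.67 (0.601). Of 18 NF-kB subunits and inhibitors, 4 were lower and 1 higher. The 4 lower calls, Rel, Nfkbia, Nfkbiz and Birc3 (−0.22 to −0.34), all fell away without floxed replicate 3, wild-type replicate 2 or wild-type replicate 3. Tnip1, an inhibitor of NF-kB signalling, was higher (0.37, adjusted p = 1.1e-04).

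Interferon-stimulated genes lay lower in floxed libraries. All 30 measured had a log2 difference below 0, with a median of −0.50. In the fit 11 were called lower and 0 higher under IL-33, and 9 were called lower and 0 higher without cytokine. Beside this, 5.90% of all autosomal genes were lower under IL-33 and 4.29% without cytokine. Their summed level was 1408 to 1856 CPM in the floxed libraries and 2057 to 2708 CPM in the wild-type libraries. Rsad2, the antiviral protein viperin, measured 41.5, 29.1 and 40.1 CPM in floxed and 85.8, 80.4 and 66.6 CPM in wild-type libraries (−1.07 ± 0.24, adjusted p = 0.00430). Without cytokine Rsad2 measured 61.8, 37.4 and 50.6 CPM against 108, 72.8 and 84.8 CPM (−0.83, adjusted p = 0.0271). Isg15, a ubiquitin-like modifier, measured 25.0, 20.1 and 26.3 CPM against 56.3, 53.1 and 38.7 CPM (−1.05, adjusted p = 0.00582). Floxed replicate 2 was the lowest of the 6 libraries for both. Without cytokine, replicate 2 was also the lowest in each genotype for both, with Isg15 at 28.9, 13.7 and 23.1 CPM in floxed and 50.4, 33.8 and 36.4 CPM in wild-type libraries. In wild-type cells under IL-33, replicate 3 was the lowest for both. In libraries of ST2-deficient macrophages with IL-33, Rsad2 measured 59.9, 33.8 and 58.4 CPM and Isg15 30.7, 19.0 and 23.3 CPM. Without cytokine they measured 70.6, 36.6 and 49.1 CPM and 32.0, 19.2 and 21.8 CPM. For both genes these values lay below every wild-type library of the same condition, so the lower level was not particular to floxed cells.

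The number of interferon-stimulated genes called depended on single libraries. It was 3 without floxed replicate 2, 7 without floxed replicate 3, 5 without wild-type replicate 1 and 6 without wild-type replicate 2, and up to 14 without another library. Ifit2 (−1.12, adjusted p = 0.0119) lost its call without floxed replicate 2 (0.0671), and Ifit1 (−1.03, adjusted p = 0.0237) lost it without floxed replicate 2 or 3 or wild-type replicate 1 or 2 (up to 0.112). Mx1 (−0.94, adjusted p = 0.0102) lost it without floxed replicate 2 or wild-type replicate 1 (up to 0.0537), and Cmpk2 (−0.92, adjusted p = 0.00985) without floxed replicate 2 (0.0584). Trim30a, which was called in all 6 fits without 1 library, and the RNA sensors Ddx58 and Ifih1, Bst2 and Gbp2, which were not, made up the rest of the called members with Rsad2 and Isg15. Ddx58, Ifih1 and Gbp2 lost their calls without floxed replicate 2 or 3 or wild-type replicate 1 or 2, Gbp2 also without wild-type replicate 3, and Bst2 without floxed replicate 1 or 2 or wild-type replicate 1 or 2. Irf1, a transcription factor of interferon responses outside the list, was lower by 0.33 on the log2 scale (log2 −0.33, adjusted p = 2.8e-04). No interferon-stimulated gene of this list passed the test for the difference of differences.

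**Figure D4:**
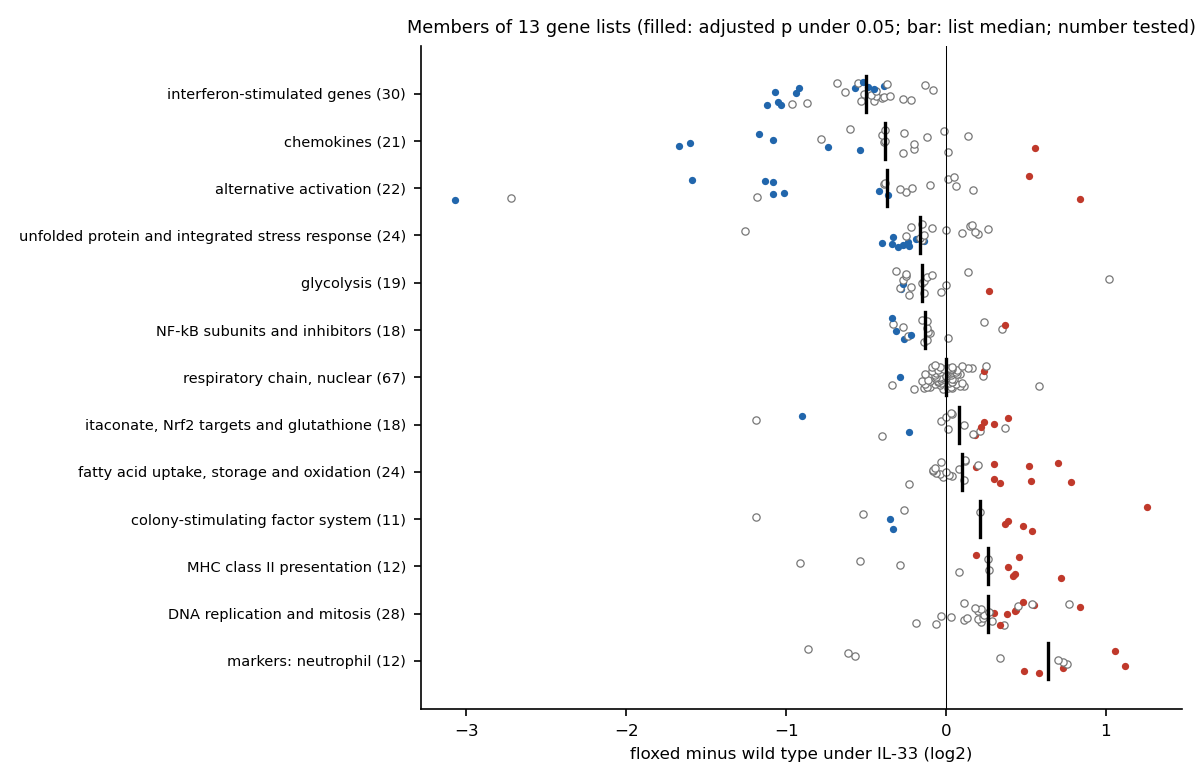
Members of 13 gene lists (y axis, number tested in brackets) by their floxed minus wild-type difference under IL-33 (log2, x axis); filled points passed the test, blue for lower and red for higher, open points did not, and black bars are list medians. Every interferon-stimulated gene lies left of 0, and the medians run from −0.50 for that list to 0.64 for the neutrophil markers.

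Several antigen presentation genes were higher. Of 12 genes of MHC class II presentation, 6 were higher and 0 lower under IL-33 (median 0.26), and 8 were higher and 0 lower without cytokine. Of all autosomal genes, 5.36% were higher under IL-33 and 5.46% without cytokine. H2-Aa, the alpha chain of I-A, measured 460, 501 and 424 CPM in floxed and 231, 287 and 321 CPM in wild-type libraries (0.72 ± 0.11, adjusted p = 8.4e-05). Ciita, the master transcriptional activator of the class II genes, measured 90.5, 104 and 84.1 CPM against 53.3, 74.4 and 74.9 CPM (0.46, adjusted p = 0.00518). Ctss, the cathepsin that trims the invariant chain, was higher by 0.19 (adjusted p = 0.00444). H2-Eb1 and H2-Ab1 were higher by 0.43 and 0.42. H2-Eb1 lost its call without wild-type replicate 1 (adjusted p = 0.0602), and H2-Ab1 lost it without floxed replicate 2 or wild-type replicate 1 (up to 0.0750). Without cytokine the difference for H2-Aa was 1.28 and for H2-Eb1 1.04, and the difference of differences for H2-Eb1 was −0.62 (adjusted p = 0.0460), called in 3 of 12 fits without 1 library.

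The receptors of the colony-stimulating factors split. Csf1r, the receptor of M-CSF, measured 3058, 3060 and 2924 CPM in floxed and 3363, 3900 and 4102 CPM in wild-type libraries (−0.33, adjusted p = 0.00116). Csf2ra, the specific chain of the GM-CSF receptor, measured 282, 299 and 286 CPM against 210, 198 and 214 CPM (0.48 ± 0.06, adjusted p = 6.6e-06). Csf2rb2, another member of the same list, was higher by 0.39 (adjusted p = 0.00655). In all, 5 of 11 members of this system were higher and 2 lower, and 2 were higher without wild-type replicate 2 and 3 without wild-type replicate 3. Csf3r, the G-CSF receptor, was lower under IL-33 (−0.35, adjusted p = 0.0150, up to 0.120 without floxed replicate 3 or wild-type replicate 2 or 3) and higher without cytokine (0.33, adjusted p = 0.0266), a difference of −0.68 (adjusted p = 0.0113), called in 10 of 12 fits without 1 library.

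Metabolic genes were examined because the study's title names metabolic reprogramming. For arginine and polyamine metabolism, 5 of 16 measured genes were lower and 1 higher, and 3 were lower without floxed replicate 1 or wild-type replicate 1. Besides Arg1, Slc7a2, the cationic amino acid transporter that brings in arginine, measured 35.0, 24.3 and 26.3 CPM in floxed and 43.3, 35.3 and 51.5 CPM in wild-type libraries (−0.60, adjusted p = 0.00406), with no overlap. Its difference without cytokine was 0.48 (adjusted p = 0.144), and the difference of differences was −1.08 (adjusted p = 0.0315), called in 6 of 12 fits without 1 library. Oaz2, an antizyme that limits ornithine decarboxylase, was lower by 0.30 on the log2 scale (log2 −0.30, adjusted p = 0.00482). Oaz1 was called too (−0.28) but lost the call without floxed replicate 1 or wild-type replicate 1 (adjusted p up to 0.0634), and it shared 21% of its exon words with other genes.

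Few genes of the respiratory chain were called, beside 11.3% of all autosomal genes. Of 67 nuclear-encoded respiratory chain genes, 1 was lower and 1 higher, with a median of −0.00. The number higher was 0 in 5 of 6 fits without 1 library and 2 without floxed replicate 1, and 2 were lower without floxed replicate 3. Of 21 genes of the TCA cycle 2 were lower, a share near that over all autosomal genes. Fh1, which encodes fumarase, measured 78.8, 82.1 and 78.6 CPM in floxed and 105, 115 and 112 CPM in wild-type libraries (−0.47 ± 0.06, adjusted p = 7.8e-06). Its log2 change on IL-33 was 0.75 in the wild type and 0.39 in floxed cells (difference −0.36, adjusted p = 0.0329, called in 4 of 12 fits without 1 library). Sdhc, a membrane subunit of succinate dehydrogenase, measured 129, 126 and 131 CPM against 160, 159 and 161 CPM (−0.31, adjusted p = 2.3e-04). Ucp2, an inner membrane carrier, differed by 0.02 (adjusted p = 0.819), and among 23 mitochondrial carriers and dynamics genes Bnip3 was the 1 lower member. Irg1, the older symbol of the itaconate enzyme gene Acod1, measured 71.7, 40.8 and 54.0 CPM against 76.5, 66.9 and 75.8 CPM, which overlap (−0.40, adjusted p = 0.303).

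Glycolysis genes had a median of −0.15, with 2 of 19 lower and 1 higher, beside 11.3% called over all autosomal genes. Gpi1 (−0.28, adjusted p = 0.0254) lost its call without floxed replicate 1 or 3 or wild-type replicate 2 or 3 (up to 0.115), and Pfkfb3 (−0.27, adjusted p = 0.00850) lost its call without wild-type replicate 2 or 3 (up to 0.0843). Hk3, the myeloid hexokinase, was higher (0.27, adjusted p = 0.00500). A fit on the 6 libraries alone or with replicate number as a block called up to 9 glycolysis genes lower. Of 16 hypoxia genes, Bnip3 and Egln3 were lower, a share near that 11.3%. Egln3, a prolyl hydroxylase of the hypoxia-inducible factors, was at 29.7, 35.1 and 28.5 CPM against 50.8, 56.9 and 63.9 CPM (−0.88, adjusted p = 0.0248) and lost its call without floxed replicate 1 or 3 or wild-type replicate 2 or 3 (up to 0.0974).

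Several genes of fatty acid handling were higher in floxed cells. Of 24 measured, 8 were higher and 0 lower (median 0.10), and without cytokine 4 were higher and 0 lower. The shares higher over all autosomal genes were 5.36% and 5.46%. Fabp4, a cytoplasmic fatty acid-binding protein, measured 75.7, 74.6 and 76.2 CPM in floxed and 43.3, 43.7 and 44.7 CPM in wild-type libraries (0.78 ± 0.09, adjusted p = 1.6e-06). Fabp5 measured 802, 864 and 918 CPM against 583, 605 and 605 CPM (0.53 ± 0.06, adjusted p = 1.6e-06). Pparg, a nuclear receptor of lipid metabolism, measured 41.1, 40.6 and 37.2 CPM against 31.4, 27.8 and 23.4 CPM (0.52 ± 0.09, adjusted p = 6.3e-04). Cpt1a, the entry step of mitochondrial fatty acid oxidation, was higher by 0.30 (adjusted p = 2.9e-05), as was Lipa, the lysosomal lipase (0.30, adjusted p = 4.3e-05). Nr1h3, the oxysterol receptor LXR-alpha, and its target Abcg1, which exports cholesterol, were higher by 0.51 and 0.29 (adjusted p = 1.2e-04 and 6.1e-05).

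Of 18 genes of the itaconate and Nrf2 list, 5 were higher and 2 lower, and the number higher fell to 1 without floxed replicate 1 or wild-type replicate 2 and to 2 without floxed replicate 3 or wild-type replicate 3. The number lower was 0 without floxed replicate 3 and 1 without floxed replicate 2 or wild-type replicate 3. Gstm1, a glutathione transferase, was the member with the lowest adjusted p, at 134, 117 and 124 CPM against 106, 90.4 and 89.5 CPM (0.39, adjusted p = 8.5e-04). Hmox1, the enzyme that breaks down haem, was lower (−0.23, adjusted p = 0.0142), a call lost without floxed replicate 2 or 3 or wild-type replicate 3 (up to 0.115).

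Chaperones of the endoplasmic reticulum were lower in floxed cells by small amounts. Of 24 genes of the unfolded protein and integrated stress responses, 9 were lower and 0 higher (median −0.16), and without cytokine 4 were lower and 1 higher. The shares lower over all autosomal genes were 5.90% and 4.29%. The 9 were Hspa5, Hsp90b1, Pdia3, Pdia4, Pdia6, Calr, Canx, Dnajb11 and Creld2, all of which fold or retain proteins in that compartment. Hspa5, the chaperone BiP, measured 736, 698 and 694 CPM in floxed and 868, 891 and 862 CPM in wild-type libraries (−0.30 ± 0.05, adjusted p = 1.3e-04). Pdia6, a disulfide isomerase, measured 205, 208 and 207 CPM against 273, 277 and 269 CPM (−0.40 ± 0.06, adjusted p = 8.1e-05). The differences were small and the libraries of each genotype close together, and the count stayed at 7 to 9 in fits without 1 library. Canx lost its call in 5 of these 6 fits, all but that without floxed replicate 1, and Dnajb11 without floxed replicate 2 or wild-type replicate 1 or 2.

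Several DNA replication and mitosis genes were higher in floxed cells. Of 28 measured, 8 were higher and 0 lower under IL-33 (median 0.26), and 17 were higher and 0 lower without cytokine. The shares higher over all autosomal genes were 5.36% and 5.46%. Rrm2, a subunit of ribonucleotide reductase, measured 47.0, 41.1 and 50.7 CPM against 30.0, 23.5 and 24.3 CPM (0.84 ± 0.15, adjusted p = 6.9e-04). Mcm7, a subunit of the replicative helicase, was higher by 0.44 (adjusted p = 0.00642). The number under IL-33 was 2 without wild-type replicate 3 and 3 without floxed replicate 1, floxed replicate 3 or wild-type replicate 2. Mcm2, Mcm3 and Mcm5 were called although their libraries overlapped.

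Receptors and bridging proteins for apoptotic cells divided evenly, with 6 higher and 6 lower of 21 measured, and 3 lower without floxed replicate 1 or wild-type replicate 2. Higher members besides Axl and Timd4 included Mfge8, a bridge to integrins, at 163, 198 and 169 CPM against 111, 124 and 132 CPM (0.53, adjusted p = 4.5e-04), and Pros1, a bridge to the TAM receptors (0.46, adjusted p = 2.5e-04). Gas6, the ligand of Axl, was lower at 758, 754 and 776 CPM against 1077, 990 and 944 CPM (−0.40, adjusted p = 0.00893). The complement genes C1qb and C1qc were lower by 0.20 and 0.26 on the log2 scale (log2 −0.20 and −0.26), and C1qc lost its call without floxed replicate 1 or wild-type replicate 2 (adjusted p up to 0.0631). Marco, a scavenger receptor, was called (−1.48, adjusted p = 0.0156) but lost the call without floxed replicate 1 or 3 or wild-type replicate 2 or 3 (up to 0.109). It also lost the call with DESeq2 (adjusted p = 0.473).

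Matrix proteins and proteases gave 4 higher and 5 lower of 20 measured, osteoclast and fusion genes 2 and 2 of 10, repair and growth factors 4 and 3 of 16, and sterol and fatty acid synthesis 2 and 0 of 26. Of all autosomal genes 5.36% were higher and 5.90% lower, and the share higher in the synthesis list was near the former. In fits without 1 library the matrix list had 1 higher (without floxed replicate 3 or wild-type replicate 1 or 2) to 6 higher, and 3 lower without floxed replicate 3 or wild-type replicate 2 or 3. The repair list had 2 higher without floxed replicate 2 or 3 or wild-type replicate 2, and the osteoclast list had 1 higher in each fit except that without floxed replicate 2. Atp6v0d2, a proton pump subunit and osteoclast gene, measured 192, 241 and 223 CPM in floxed and 112, 112 and 118 CPM in wild-type libraries (0.94 ± 0.10, adjusted p = 8.7e-07), and Itgb3, the beta-3 integrin, was lower (−0.87, adjusted p = 7.7e-04). Plaur, the urokinase receptor, was higher by 0.68 (adjusted p = 2.1e-04). Mmp13, a collagenase, was lower at 99.7, 66.1 and 72.4 CPM against 139, 114 and 128 CPM (−0.68, adjusted p = 0.00260). Among 26 transcription factors of macrophage polarization, 4 were higher and 2 lower, and Maf, which sustains the resident macrophage state, measured 428, 434 and 399 CPM against 581, 607 and 611 CPM (−0.51 ± 0.08, adjusted p = 8.9e-05). Among 26 lysosomal genes, 4 were higher and 2 lower with a median of 0.05, and upper-quartile scaling left 0 of the 2 lower calls, as did leaving out floxed replicate 1 or 3 or wild-type replicate 1 or 2. Without floxed replicate 2 or wild-type replicate 3 the number lower was 1. Mcoln1, a lysosomal cation channel, and Tfeb, which controls lysosomal genes, were higher by 0.29 and 0.35 (adjusted p = 3.0e-04 and 9.2e-04).

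Markers of other cell types that marrow cultures can hold were read from the same libraries, and in bulk RNA fewer cells of a type and less RNA per cell cannot be told apart. The marker counts stand beside 5.36% higher and 5.90% lower over all autosomal genes. Of 12 neutrophil markers, 5 were higher and 0 lower (median 0.64), and the summed level was 303 to 354 CPM in floxed and 204 to 285 CPM in wild-type libraries. Ngp, a neutrophil granule protein, measured 11.6, 14.4 and 11.8 CPM against 6.74, 5.65 and 5.69 CPM (1.06 ± 0.16, adjusted p = 1.3e-04), and Elane, neutrophil elastase, was higher by 1.12 (adjusted p = 0.00332). The number called was 2 without floxed replicate 2 or 3 and 3 without wild-type replicate 1. Of 7 mast cell and basophil markers 1 was higher, Kit, a share near the 11.3% called over all autosomal genes. Their sums were 10.9 to 14.8 CPM against 4.11 to 8.09 CPM, and Mcpt2, Mcpt4, Cma1, Tpsb2 and Tpsab1 were at 0. Kit lost its call without floxed replicate 3 or wild-type replicate 2 or 3 (up to 0.0804).

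Of 3 eosinophil markers tested, Siglecf was higher (1.03, adjusted p = 0.00135) and Ccr3 was lower. Prg2 was called higher (0.86, adjusted p = 0.0477) and lost the call in all fits without 1 library except that without floxed replicate 2 (up to 0.189). Their sum was 23.5 to 25.2 CPM in floxed and 24.3 to 27.8 CPM in wild-type libraries, and Il5ra was at 0. T cell and innate lymphoid markers (1 higher and 1 lower of 9) summed to 267 to 303 CPM against 163 to 182 CPM, of which Il7r made up 231 to 265 and 126 to 140 CPM. The lower call, Cd4, was lost without floxed replicate 1 or 2 or wild-type replicate 2 or 3. B cell markers (2 higher and 1 lower of 7) summed to 62.7 to 80.7 CPM in floxed and 93.0 to 117 CPM in wild-type libraries. Ighm was lower (−0.68, adjusted p = 6.8e-04), while Jchain totalled 97 counts against 6 (ratio 17.5, interval 7.77 to 49.0). The number of B cell markers higher was 1 in each fit without 1 library except that without floxed replicate 1.

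Dendritic cell markers (0 higher and 2 lower of 11) summed to 461 to 503 CPM in floxed and 488 to 533 CPM in wild-type libraries, which overlap. The number lower was 0 without floxed replicate 1 or wild-type replicate 2 and 1 without floxed replicate 2 or wild-type replicate 1. Monocyte markers (2 higher and 1 lower of 9) summed to 790 to 904 against 786 to 1266 CPM, which also overlap. The number higher was 1 without floxed replicate 1 or 3 or wild-type replicate 1 or 2, and the number lower was 0 without floxed replicate 1 or 3 or wild-type replicate 2 or 3. Stromal and endothelial markers (1 higher and 0 lower of 8, and 2 higher without wild-type replicate 3) summed to 20.4 to 21.8 against 13.8 to 15.4 CPM, with Pdgfra and Lum at 0. The share of these stromal and endothelial markers called was near the 11.3% over all autosomal genes. The 3 NK cell markers summed to 0.848 to 1.34 CPM in floxed and 0.582 to 1.70 CPM in wild-type libraries, with Gzma at 0. The 5 erythroid and megakaryocyte markers summed to 135 to 167 against 165 to 218 CPM, with Hbb-bs at 0. Pf4 made up 136, 162 and 130 CPM of this sum in floxed and 160, 187 and 209 CPM in wild-type libraries. The log2 change of Pf4 on IL-33 in the wild type was 3.39. None of these 8 markers was called. The part of these cells in the differences above was not tested.

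Few tested genes lie around the modified loci, so the share called there is known only roughly. Within 5 Mb of Gata3, 5 of 47 tested genes (10.6%) were called, and within 5 Mb of Cx3cr1 8 of 81 (9.88%), beside 11.3% of all autosomal genes. By chromosome the share ran from 9.32% on chromosome 13 to 14.1% on chromosome 12.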

How the data were processed

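RNA was read by paired-end sequencing (NEBNext Ultra libraries on a NovaSeq instrument). The values are the deposited read counts per gene. For their making, the tools listed in the submitters' processing notes are HISAT2 (2.0.5), then HTSeq (0.6.1), besides DESeq2 (1.22.2), and the build is GRCm38 (mm10). The annotation and strand setting used for counting are not given in the sources used here. GENCODE M21 matched 46574 of 47069 gene identifiers and supplied gene types and positions.

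All 21 libraries, of 32.6 to 48.7 M counts, entered 1 edgeR 4.0.16 quasi-likelihood fit (R 4.3.3) with 7 group means, TMM scaling and filterByExpr. The Benjamini-Hochberg adjustment ran over 14473 genes, with calls under 0.05, and CPM were computed from the deposited counts and scaled library sizes. Contrasts were floxed minus wild type under IL-33, the same without cytokine, and their difference. Responses to IL-33 share libraries with these and are given as values only.

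Alternatives were upper-quartile and RLE scaling, DESeq2 1.42.0, limma-voom (limma 3.58.1), other filters, the contrast's libraries alone, a replicate block, fits without sex-chromosome and mitochondrial genes or without genes near Gata3 and Cx3cr1, and leaving out each library. The fit was tested on simulated data.

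The members and all 37 gene lists were chosen with earlier results of these data known. Genes named were the targeted genes and known markers, in each direction the 15 called protein-coding genes of largest difference that had no overlap and a mean log2 CPM of 2 or more, up to 4 called members per list, and the 6 largest differences of differences each way; not all are printed, and some named genes are not reported here. Other list members are named as examples of their list. Shared exon words of 50 bases were counted for 194 genes, those named and the other called list members. Promoter windows come from RefSeq. Intervals and floors cover counting error only.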

Additional observations from a re-analysis of the deposited data

Results flagged for a closer look

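The genotype difference under IL-33 differed from that without cytokine for 31 of the genes named or listed, by a test of the difference itself (edgeR's quasi-likelihood test with Benjamini-Hochberg adjustment, log2 scale). A value below 0 means that floxed cells lay lower, relative to the wild type, under IL-33 than without it.

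The call stood in 12 of 12 fits without 1 library for 10 of them. Below 0 were Sdc4 (−0.66), Ccr3 (−1.43), Il1rl1 (−1.19), Igf1 (−0.35), Slc22a4 (−1.79), Clec4b1 (−1.91) and Tmem26 (−2.05). Above 0 were Dkk2 (1.48), Spp1 (0.78) and Tusc1 (0.99). Clec4b1, a C-type lectin gene, stood at 7.21, 8.27 and 6.68 CPM in floxed and 2.19, 3.42 and 3.08 CPM in wild-type libraries without cytokine, and at 2.99, 2.97 and 2.69 CPM against 3.36, 3.49 and 6.02 CPM under IL-33. Tmem26 was likewise higher in floxed cells without cytokine (log2 1.69, adjusted p = 1.5e-04) and not called under IL-33 (−0.36, adjusted p = 0.146).

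The call was lost without at least 1 library for the others. Among secreted and surface proteins these were Gdf15 (1.22, adjusted p up to 0.114), Bmp2 (−1.38, up to 0.0905), Pdgfc (0.90, up to 0.110), Clec4n (0.98, up to 0.0830), Itga9 (−1.71, up to 0.126), Adgre1 (−0.32, up to 0.179), Mgl2 (−0.73, up to 0.149), Ccr2 (−0.35, up to 0.179), Csf3r (−0.68, up to 0.0594), C1qa (−0.41, up to 0.131), H2-Eb1 (−0.62, up to 0.152) and Ear2 (−2.03, up to 0.165). Among transporters, enzymes and other genes they were Slc5a3 (1.50, up to 0.100), Slc7a2 (−1.08, up to 0.110), St8sia1 (−2.10, up to 0.0823), P4ha2 (−0.80, up to 0.132), Fh1 (−0.36, up to 0.136), Cpt1a (0.26, up to 0.0870), Mcoln1 (0.33, up to 0.0562), Mrps6 (0.96, up to 0.116) and Cebpd (0.67, up to 0.0873). Ear2 shared 41.5% of its exon words with other genes, Mrps6 and Slc5a3 overlap on the same strand, and Pdgfc, Slc7a2 and St8sia1 overlap genes on the opposite strand. None of the 31 changed sign in a fit without 1 library.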

How the results depend on the processing

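Under 10 other settings the genes called under IL-33 numbered 1358 to 1897, against 1566. In 6 fits without 1 library they numbered 960 to 1390 (475 to 734 higher, 485 to 656 lower), and without cytokine 622 to 1178 (388 to 610 higher, 234 to 572 lower). The difference of differences (172 genes, 76 above and 96 below 0) gave 372 with DESeq2 (199 and 173), 536 without the expression filter (220 and 316) and 347 with a replicate block (178 and 169), and 52 to 266 in fits without 1 library (19 to 144 above, 33 to 122 below). The replicate block gave 1863 genes under IL-33 (873 higher, 990 lower) and 1722 without cytokine (915 higher, 807 lower). Over all autosomal genes, same-numbered libraries of the genotypes under IL-33 showed little shared deviation (correlations 0.05, 0.01 and −0.01). That measure can miss a replicate effect on some genes. For Ifit1 without cytokine, replicate 2 was lowest in floxed (44.8, 19.0 and 33.7 CPM) and wild-type libraries (68.1, 47.2 and 51.4 CPM). Under IL-33 its lowest library was replicate 2 in floxed and replicate 3 in wild-type cells. Whether the numbers pair libraries for such genes was not tested. The cause of these shifts was not tested. Of 194 genes (those named and the other called list members), 118 were called, or not called, alike in every fit run. A further count, 34, changed call in a setting other than a left-out library. None that was called in the main or the other fit changed sign between them. A gene called in neither could change sign, as Ear2 did (−0.18 to 0.05 in fits without 1 library). Windows of 2 and 10 Mb gave 14.3% and 12.3% called near Gata3 and 12.5% and 13.4% near Cx3cr1. Without the expression filter 28 interferon-stimulated and 19 DNA replication genes were called. With 3 libraries a group, genes at a few counts, Gata3 among them, cannot show differences of the sizes reported here.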
